A study of Mus musculus with 6 samples.

Results

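The genes described here are the cytosolic heat shock chaperones with their co-chaperones and heat shock factors, a list of 34 genes. They were chosen by membership of this family, with the Prox1-OE and control values of the same arrays already known, so every difference between the groups given for them is a description and not a test. Of the 34 genes, 32 were measured, by 80 of the 45101 probe sets on the array, where a probe set is the group of short probes that reads 1 transcript. A gene counted as measured if it had a probe set that the array annotation assigns to that gene symbol alone. Hsp90ab1 and Hsf1 were not analysed here. The list is wider than its name: Hspd1, Hspe1 and Hspa9 encode mitochondrial proteins, and Hsf2 encodes a transcription factor.

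Each array read RNA of the entire pancreas of mice of the NMRI stock, taken on postnatal day 15. The Prox1-OE group held 3 samples of the genotype Jojo-Prox1,Ngn3-cre, which overexpress the homeobox factor Prox1, and the control group held 3 samples of the genotype Ngn3-cre, so both groups carried the Cre transgene. Ngn3-cre acts in endocrine progenitors, which give rise to a small part of the pancreas, whereas the arrays read all of its cells. Nothing in the labels ties a sample to its own animal or litter, so the spread between samples may be technical. The stated aim of the series concerned expression in beta cells that overexpress Prox1.

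The arrays were those of pancreas: all 16 measured acinar markers lay at percentile 94.8 or above of all probe sets, and on all 6 arrays Ins2 read 12.62 or higher and Gcg 11.91 or higher. Correlations between arrays ran from 0.988 to 0.994, and on the first principal component (31.4% of the variance) the score of Prox1-OE replicate 1 was -42.3, while scores elsewhere ran from -6.15 to 21.1. The brightest probe set of Prox1 read 5.30, 4.98 and 5.31 in Prox1-OE pancreas and 5.61, 4.90 and 4.90 in control pancreas, a difference of 0.06 ± 0.19 (SE). Arrays of this kind read the distal end of a transcript, which a transgene may lack, so this does not check the labels.

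Heat shock proteins hold unfolded proteins in solution and help them fold. Small heat shock proteins bind unfolding clients, the HSP70 and HSP90 machines refold or mature them with the help of J proteins and nucleotide exchange factors, and chaperonins enclose them. When unfolded protein accumulates, heat shock factors bind heat shock elements, which are repeats of the unit nGAAn in alternating orientation, and raise transcription of the inducible members, while cognate members such as Hspa8 are made at all times. The acinar cells that fill the pancreas are among the most active protein-producing cells of the body, though most of their folding takes place in the endoplasmic reticulum.

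The members were therefore set apart as 18 heat-inducible genes and 16 constitutive genes, of which 18 and 14 were measured. Promoter windows from RefSeq (GRCm38.p6, 250 bases before and 50 bases after the annotated start) were at hand for 26 members, 16 heat-inducible and 10 constitutive, in 36 windows because some genes have several starts. The 3-unit element GAANNTTCNNGAA was searched on both strands, where overlapping matches can share units. It was present without a difference in 4 of 16 heat-inducible members (Chordc1, Hspd1, Hspe1 and Hsph1) and in 1 of 10 constitutive members (Dnajb6), against 0.662% of 27025 mouse genes with such a window. With at most 1 of its 9 fixed letters different it was found in 11 of 16 heat-inducible members, in 4 of 10 constitutive members and in 8.15% of all genes. The 150 bases from position -120 to position 30 around the start are shown for 6 heat-inducible members: Hspb1, Hspa4l, Hspa1a and Hsph1, which are among the members with the largest differences between the groups, plus Chordc1 and Hspe1 for their exact elements. Capitals mark the 3-unit elements with at most 1 letter different.
Hspb1, chr5:135887799-135887948, plus strand: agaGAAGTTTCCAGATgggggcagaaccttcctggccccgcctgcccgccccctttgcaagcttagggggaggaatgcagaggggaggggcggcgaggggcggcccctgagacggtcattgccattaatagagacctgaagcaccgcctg
Hspa1a, chr17:34972127-34972276, minus strand: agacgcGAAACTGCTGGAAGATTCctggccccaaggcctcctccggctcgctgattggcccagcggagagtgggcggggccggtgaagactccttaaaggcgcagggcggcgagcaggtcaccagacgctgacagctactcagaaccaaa
Hsph1, chr5:149636286-149636435, minus strand: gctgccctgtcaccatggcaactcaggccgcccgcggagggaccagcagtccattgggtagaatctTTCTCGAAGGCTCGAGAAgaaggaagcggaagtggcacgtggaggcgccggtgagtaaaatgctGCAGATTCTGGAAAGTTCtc
Chordc1, chr9:18292147-18292296, plus strand: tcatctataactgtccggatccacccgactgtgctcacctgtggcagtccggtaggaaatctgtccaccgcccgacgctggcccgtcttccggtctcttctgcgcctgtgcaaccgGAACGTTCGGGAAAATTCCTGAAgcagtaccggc
Hspe1, chr1:55088028-55088177, plus strand: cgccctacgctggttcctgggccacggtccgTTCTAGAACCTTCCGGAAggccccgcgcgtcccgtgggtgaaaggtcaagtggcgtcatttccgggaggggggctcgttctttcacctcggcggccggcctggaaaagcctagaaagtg
Hspa4l, chr3:40745493-40745642, plus strand: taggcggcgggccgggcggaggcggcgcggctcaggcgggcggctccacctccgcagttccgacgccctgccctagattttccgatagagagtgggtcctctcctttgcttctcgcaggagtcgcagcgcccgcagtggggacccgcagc

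In Hspb1 the element lay at positions -117 to -105 and had 1 letter different. Hspa1a and Hspa1b, neighbours on chromosome 17, carry almost the same promoter: their 300-base windows differed at 4 positions, and both had 2 overlapping elements from -114 to -97, each with 1 letter different. In Hsph1 an exact element lay at positions 16 to 28 after the start. In Chordc1, 3 exact elements overlapped in a run of alternating units across the start, from position -4 to position 19. Hspe1 and Hspd1, transcribed in opposite directions from a shared promoter, had the same 2 exact overlapping elements at chr1:55088059-55088076. No match was found in the window of Hspa4l, which says only that these letters are not in it. Among the heat-inducible members, the median difference between the groups was 0.31 for the 11 with a 3-unit element and 0.27 for the 5 without. Those without were Bag3, Dnajb1, Hspa4l, Hspb8 and Stip1. Among the constitutive members the median difference was 0.02 for the 4 with a 3-unit element and 0.10 for the 6 without. The windows of Bag3 and Hspb8 held the 2-unit element GAANNTTC. It was found in 11 of 16 heat-inducible members, 3 of 10 constitutive members and 9.04% of all genes.

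**Figure D1:**
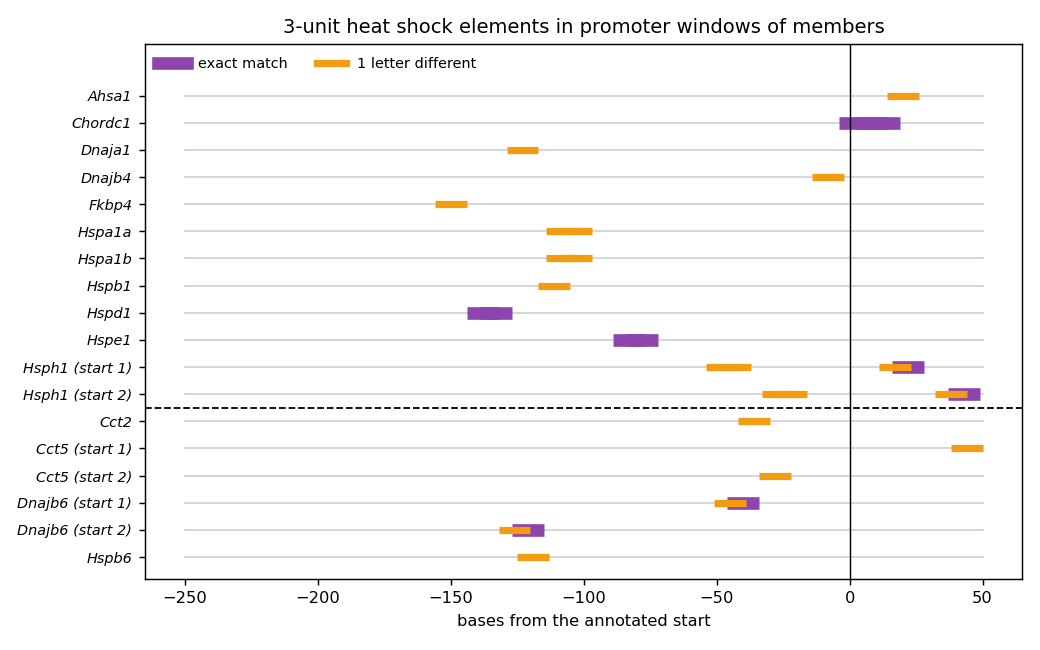
Positions of 3-unit heat shock elements in the promoter windows of members that had at least 1 match, in bases from the annotated start (vertical line). Each grey line is 1 window of 300 bases, wide bars are exact matches and narrow bars have 1 letter different; heat-inducible members stand above the dashed line, with exact elements in Chordc1, Hspd1, Hspe1 and Hsph1, and constitutive members below it, with an exact element in Dnajb6.

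Among the small heat shock proteins, Hspb1 differed most of all members. Hspb1, which encodes HSP27, a chaperone that also binds actin filaments, read 11.16, 10.74 and 10.06 on the log2 scale in Prox1-OE pancreas and 9.05, 9.45 and 8.57 in control pancreas (brightest probe set). All Prox1-OE arrays lay above all control arrays, with a gap of 0.611 between the nearest pair. The mean was 10.65 ± 0.55 in Prox1-OE and 9.02 ± 0.44 in control (SD, n = 3 each), a difference of 1.63 ± 0.29 (SE) or 3.10-fold, with a 95% interval of 0.98 to 2.29. The other probe set of Hspb1 gave 1.59 ± 0.28. In ranks from the highest difference, the probe sets of Hspb1 stood at 24 and 25 of 45037. Whole-tissue RNA cannot tell more RNA per cell from more cells of a type that makes it.

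Hspb6, which encodes HSP20, a small heat shock protein best known from smooth, cardiac and skeletal muscle, went the other way. It read 4.39, 5.07 and 5.22 in Prox1-OE and 5.57, 5.86 and 6.13 in control, again with no overlap. The difference was -0.96 ± 0.22 (SE; 95% interval -1.46 to -0.46), which ranked 10 from the lowest among all probe sets, at a level near percentile 64.1. The 12 muscle markers averaged 5.21 to 5.56 in Prox1-OE and 5.27 to 5.36 in control, their summed level on the log2 scale ran from 9.86 to 10.68 and from 9.89 to 10.08, and 5 of the 12 were lower in Prox1-OE. Their part in the difference of Hspb6 was not tested.

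The other small heat shock proteins overlapped between the groups. Hspb8, which works with Bag3 in selective autophagy, read 7.86, 7.94 and 7.41 in Prox1-OE and 7.30, 7.81 and 6.92 in control, a difference of 0.40 ± 0.22 (SE). It was 0.19 without control replicate 3 and 0.63 without control replicate 2. Cryab, which encodes alphaB-crystallin, differed by -0.08 ± 0.19, with all 3 of its probe sets between -0.15 and -0.07. Its neighbour Hspb2, a small heat shock protein of muscle, differed by -0.01 ± 0.13 at percentile 45.4 of all levels.

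**Figure D2:**
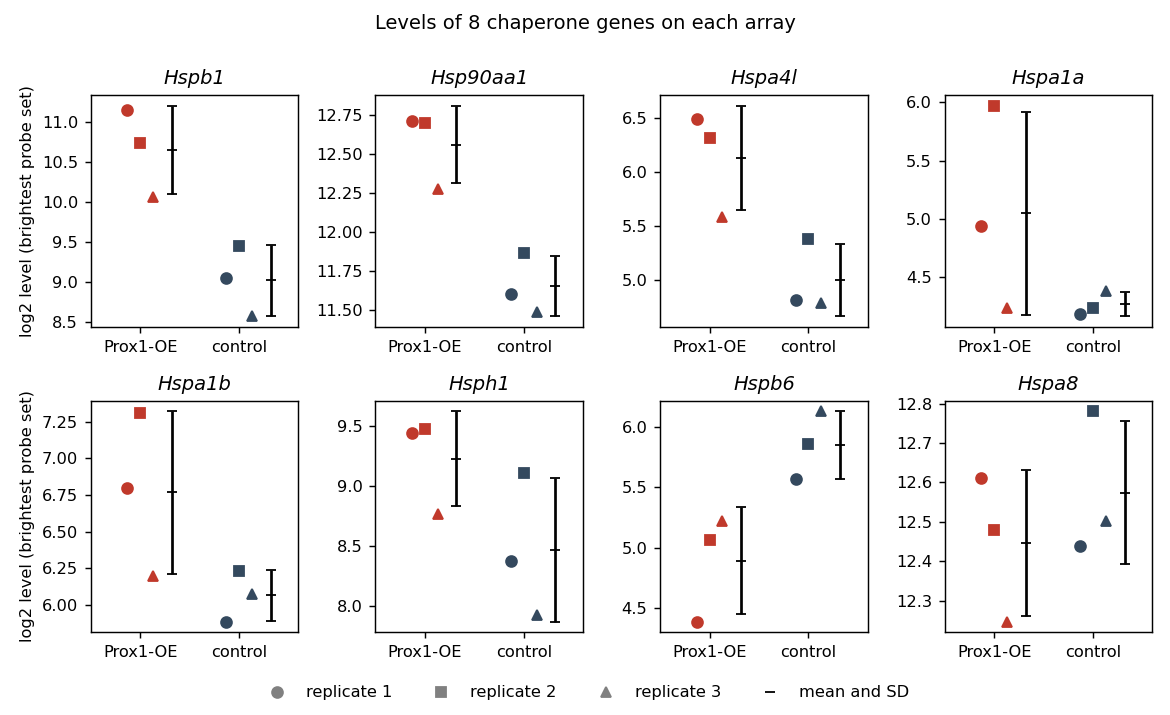
Log2 level of 8 members on each array by their brightest probe set, Prox1-OE left and control right; symbols mark the replicate number, and the black bar gives the mean and SD of 3 arrays. The groups do not overlap for Hspb1, Hsp90aa1, Hspa4l (higher in Prox1-OE) and Hspb6 (lower), and they overlap for Hspa1a, Hspa1b, Hsph1 and Hspa8; each panel has its own axis, which does not start at 0.

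Of the HSP90 family, Hsp90aa1, the inducible cytosolic HSP90, read 12.71, 12.70 and 12.27 in Prox1-OE and 11.61, 11.87 and 11.49 in control. The lowest Prox1-OE array was 0.407 above the highest control array. The difference was 0.91 ± 0.15 (SE; 95% interval 0.57 to 1.24), or 1.88-fold. Of its 5 probe sets, 4 were higher in Prox1-OE without overlap, by 0.48 to 1.09, and the fifth differed by -0.02. The fifth lay at percentile 55.1 of all levels, and the probe set with 0.48 at percentile 26.3.

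The stress-inducible HSP70 genes varied most among the Prox1-OE arrays. Hspa1b read 6.80, 7.31 and 6.20 in Prox1-OE and 5.89, 6.23 and 6.08 in control. Replicate 3 of Prox1-OE thus lay within the control range, while replicates 1 and 2 lay above it. The difference was 0.70 ± 0.24 (SE), and the other probe sets of Hspa1b gave 0.92 ± 0.34 with overlap and 1.12 ± 0.27 without. Hspa1a read 4.94, 5.97 and 4.23 in Prox1-OE and 4.18, 4.23 and 4.38 in control, a difference of 0.78 ± 0.35 (95% interval -0.02 to 1.59). Its SD was 0.87 in Prox1-OE and 0.10 in control. Without Prox1-OE replicate 2 the differences were 0.43 for Hspa1b and 0.32 for Hspa1a, and without Prox1-OE replicate 3 that of Hspa1a was 1.19. The proteins of these neighbours are nearly identical and a probe for 1 of them may read the other, so they are not separate measurements.

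The cognate HSP70 genes lay close to the control level. Hspa8, the constitutive cytosolic HSP70, read 12.61, 12.48 and 12.25 in Prox1-OE and 12.44, 12.78 and 12.50 in control, a difference of -0.13 ± 0.13 (SE; 95% interval -0.42 to 0.17). All 4 of its probe sets had a negative difference, between -0.24 and -0.09. Hspa9, the HSP70 of mitochondria, differed by 0.01 ± 0.15, Hspa14, which acts at the ribosome, by 0.05 ± 0.11, and Hspa2, known for its role in spermatogenesis, by 0.20 ± 0.12.

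The proteins of the HSP110 genes are nucleotide exchange factors of HSP70, and only Hspa4l had no overlap among the 3 at its brightest probe set. Hspa4l read 6.50, 6.31 and 5.58 in Prox1-OE and 4.82, 5.38 and 4.79 in control by its brightest probe set, with no overlap and a difference of 1.14 ± 0.24 (SE; 95% interval 0.58 to 1.69). All 5 of its probe sets had a positive difference, but of 0.18 to 1.14, and the brightest stood alone above 0.52. The mean of the 5 differed by 0.51. Hsph1, in the heat-inducible class like Hspa4l, read 9.44, 9.47 and 8.77 in Prox1-OE and 8.38, 9.11 and 7.93 in control. Control replicate 2 lay above Prox1-OE replicate 3, and the difference was 0.76 ± 0.29 (0.48 without control replicate 3). Hspa4, made constitutively, overlapped between the groups at its brightest probe set with a difference of 0.14 ± 0.13 (95% interval -0.16 to 0.45, and 0.027 without control replicate 3). Over its 4 probe sets the difference ran from -0.05 to 0.65. The probe set with 0.65 ± 0.22, at percentile 81.8 of all levels, was higher in Prox1-OE without overlap.

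J proteins, which deliver clients to HSP70, differed little at their brightest probe sets. Dnajb1, the inducible HSP40, read 7.75, 7.65 and 7.79 in Prox1-OE and 7.53, 7.52 and 7.70 in control, a difference of 0.15 ± 0.09 (SE) with overlap. Dnaja1 differed by 0.17 ± 0.16 (0.05 without Prox1-OE replicate 1), and its other probe sets by 0.20 and 0.28. Dnajb6, which keeps aggregation-prone proteins soluble, differed by 0.11 ± 0.09, Dnaja2 by -0.12 ± 0.09 and Dnajb4 by -0.07 ± 0.10. The probe sets of each of the last 3 genes had differences of both signs. Of Dnajb4, 1 probe set at percentile 67.8 was lower in Prox1-OE without overlap (-0.29 ± 0.13), and the highest difference of Dnaja2 was 0.23.

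Among the co-chaperones, Bag3, an exchange factor of HSP70 that heat shock factors induce in many cells, read 7.63, 7.55 and 7.55 in Prox1-OE and 7.63, 7.82 and 7.51 in control, a difference of -0.07 ± 0.10 (SE). Bag1, another exchange factor, differed by -0.10 ± 0.11. The proteins that serve HSP90 had a positive difference at their brightest probe sets: Ahsa1, which stimulates its ATPase, differed by 0.31 ± 0.13, Stip1, which joins HSP70 and HSP90, by 0.27 ± 0.16, Chordc1 by 0.19 ± 0.16 and Fkbp4, an immunophilin of steroid receptor complexes, by 0.13 ± 0.12. All 4 overlapped between the groups. The other probe set of Ahsa1 differed by 0.02, and those of Fkbp4 by 0.02 and -0.11. Without control replicate 3 the difference was 0.15 for Stip1, 0.07 for Chordc1 and 0.05 for Fkbp4, and without control replicate 2 it was 0.41 for Stip1, 0.32 for Chordc1 and 0.22 for Fkbp4. St13, which stabilizes HSP70 in its client-bound state, read 10.27, 10.34 and 10.27 in Prox1-OE and 10.05, 10.11 and 10.15 in control, with no overlap at a difference of 0.19 ± 0.09.

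Of the chaperonins, Hspe1 and Hspd1, which form the folding chamber of mitochondria, differed by 0.32 ± 0.15 and 0.16 ± 0.12 (SE). Hspe1 read 11.06, 10.87 and 10.53 in Prox1-OE and 10.43, 10.69 and 10.37 in control, so that Prox1-OE replicate 3 lay below control replicate 2. Cct2 and Cct5, subunits of the cytosolic chaperonin that folds actin and tubulin, both differed by 0.02 ± 0.09. Hsf2, a heat shock factor, read 3.98, 3.96 and 4.06 in Prox1-OE and 3.66, 3.81 and 3.89 in control, a difference of 0.21 ± 0.10 without overlap. That level lay at percentile 39.2, in a range where background takes a large part, and its other probe set differed by -0.16.

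**Figure D3:**
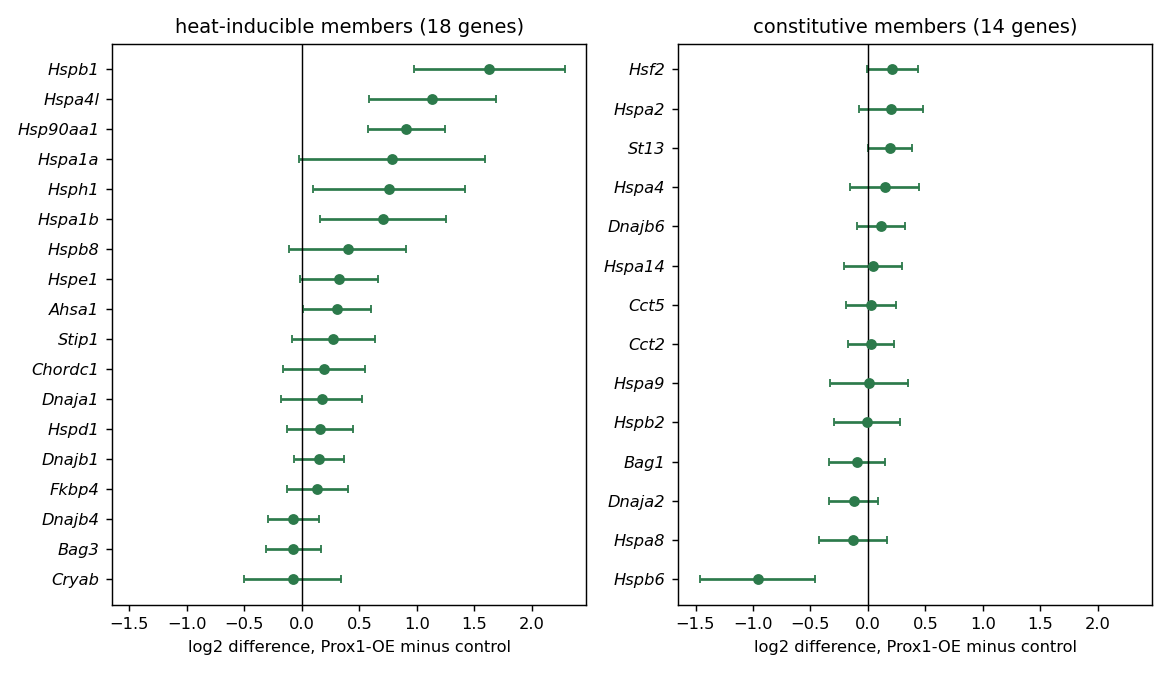
Log2 difference (Prox1-OE minus control) of every measured member at its brightest probe set, with the 95% interval from the fit across all probe sets (n = 3 arrays per group). Heat-inducible members run from -0.08 (Cryab) to 1.63 (Hspb1); constitutive members run from -0.96 (Hspb6) to 0.21 (Hsf2).

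Taking 1 probe set per gene, 24 of 32 members had a positive difference, against 46.2% of all 18193 genes. Among heat-inducible members 15 of 18 were positive with a median of 0.29, among constitutive members 9 of 14 with a median of 0.02, and the median of all genes was -0.01. Groups did not overlap for 5 members that were higher in Prox1-OE (Hspb1, Hsp90aa1, Hspa4l, Hsf2 and St13), where 5.05% of all genes behaved so, and for 1 that was lower (Hspb6), where the share of all genes was 7.02%. Over probe sets, 12 of 80 were higher without overlap, against 4.6% of all probe sets, and 2 were lower, against 6.8%. In the limma fit across 45037 probe sets, 0 of the 80 passed an adjusted p of 0.05, as 5 of all probe sets did (0.0111%), and 17 of the 80 had an unadjusted p under 0.05, against 6.15% of all. Since the contrast was known when the members were chosen, these counts describe the family and support nothing further.

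A few genes carried most of the class difference. The mean over the 18 heat-inducible members came to 8.80, 8.86 and 8.42 in Prox1-OE and 8.21, 8.49 and 8.08 in control, so that Prox1-OE replicate 3 lay below control replicate 2. The group means were 8.69 ± 0.24 in Prox1-OE and 8.26 ± 0.21 in control (SD, n = 3 each), a difference of 0.43. Without Hspb1, Hsp90aa1, Hspa1a, Hspa1b, Hspa4l and Hsph1, which had the 6 largest differences (0.70 to 1.63), the mean of the other 12 differed by 0.16. The constitutive members averaged 8.46, 8.52 and 8.46 in Prox1-OE and 8.46, 8.55 and 8.51 in control, a difference of -0.03 (SD 0.03 in Prox1-OE and 0.04 in control). Hspb6 alone set the sign of this value, since the other 13 differed by 0.05 on average.

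Within each group most heat-inducible members shared an order of the arrays, given as a description, since per-array values were known when the members and classes were chosen. Of the 18, 15 were lowest on replicate 3 among the Prox1-OE arrays, as were 29.2% of all genes. Of these arrays replicate 2 was the highest for 10, against 28.5% of all genes. Among the control arrays, 14 of 18 were highest on replicate 2, as were 30.9% of all genes, and 12 were lowest on replicate 3, against 35.5%. Of the 14 constitutive members, 7 were lowest on Prox1-OE replicate 3 and 5 were highest on control replicate 2. Hspa8 had this order in part: it was lowest on Prox1-OE replicate 3 and highest on control replicate 2. The within-group SD had a median of 0.24 for heat-inducible members, 0.13 for constitutive members and 0.14 for all genes. On 13 of the 18 heat-inducible members control replicate 2 read above Prox1-OE replicate 3, Hsph1, Hspb8 and Hspa1b among them, as on 8 of the 14 constitutive members. The share of all genes with this order was not computed.

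**Figure D4:**
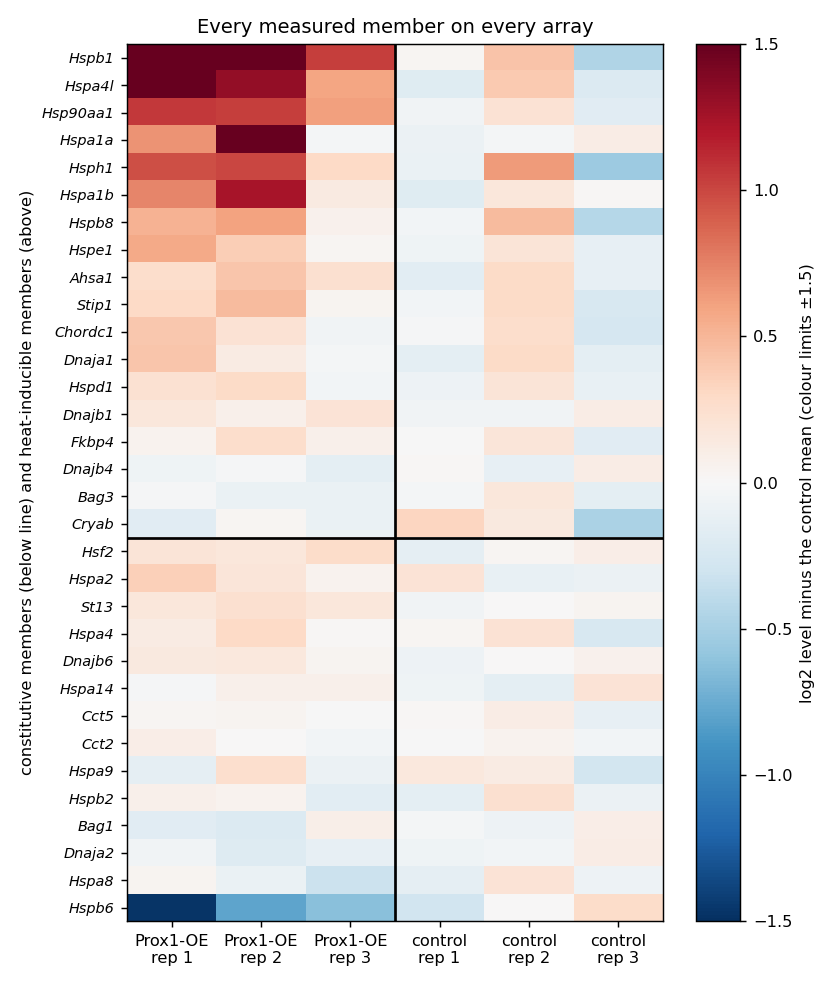
Every measured member (rows) on every array (columns), as the log2 level minus the mean of the 3 control arrays; red is above and blue below that mean. The first 6 rows, Hspb1 to Hspa1b, are darkest on Prox1-OE replicates 1 and 2, most heat-inducible rows are paler on Prox1-OE replicate 3 and red on control replicate 2, and Hspb6 in the last row is blue on the Prox1-OE arrays.

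Marker lists of several other cell types also differed between these arrays, some of them without overlap of their means. The 8 measured adipocyte markers averaged 6.96, 6.86 and 6.27 in Prox1-OE and 6.70, 6.65 and 6.18 in control, lowest on replicate 3 of each group like most heat-inducible members. Their summed level on the log2 scale ran from 11.55 to 12.08 in Prox1-OE and from 11.23 to 11.96 in control, 7 of the 8 were higher in Prox1-OE, and Adipoq, the defining marker, read 5.62, 5.87 and 3.57 in Prox1-OE and 4.55, 4.53 and 3.36 in control. Among the controls, the adipocyte mean was slightly higher on replicate 1 than on replicate 2, whereas the heat-inducible mean was higher on replicate 2. By their means, beta cell, other endocrine and muscle markers and the further cytosolic chaperones below were also lowest on replicate 3 of each group. Macrophage markers averaged 6.61 to 7.38 in Prox1-OE and 6.10 to 6.36 in control (15 of 16 higher; summed level 11.10 to 11.97 and 10.59 to 10.99), and B cell markers 4.34 to 5.40 and 4.14 to 4.21 (7 of 10 higher; summed level 8.21 to 9.89 and 7.63 to 7.88), both highest on Prox1-OE replicate 1. Endothelial markers averaged 6.36 to 6.67 in Prox1-OE and 6.01 to 6.32 in control (8 of 8 higher; summed level 9.50 to 9.98 and 9.22 to 9.46), and fibroblast markers 9.34 to 9.84 and 9.15 to 9.40 (8 of 9 higher; summed level 13.85 to 14.29 and 13.62 to 13.90). Beta cell markers averaged 6.41 to 6.62 in Prox1-OE and 6.90 to 7.37 in control (10 of 10 lower; summed level 13.56 to 13.90 and 13.55 to 14.23). Acinar markers averaged 13.31 to 13.39 in Prox1-OE and 13.40 to 13.43 in control (15 of 16 lower; summed level 18.12 to 18.20 and 18.21 to 18.23). Their median difference was -0.05, and many of them lay near the top of the array's range, where differences can be compressed. The means of T and NK cell, other endocrine and ductal markers overlapped between the groups. Of the 10 other endocrine markers, 5 were higher and 5 lower in Prox1-OE. Ppy was higher without overlap (1.29 ± 0.37 SE), and Chga (-1.51 ± 0.14) and Ghrl (-0.21 ± 0.09, at percentile 36.9 of all levels) were lower without overlap. Chga passed the threshold (limma adjusted p = 0.031). Of the 9 T and NK cell markers, 6 were higher and 3 lower in Prox1-OE. Among them only Nkg7 had no overlap (0.42 ± 0.11), at percentile 35.2 of all levels. The shares of all genes were 5.05% higher and 7.02% lower without overlap. The part of these cell types in the chaperone values was not tested.

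Immediate early genes, which handling of tissue can raise, were measured on the same arrays. Their 22 measured members averaged 6.24, 6.19 and 6.41 in Prox1-OE and 6.08, 6.14 and 6.38 in control, highest on replicate 3 of each group. Of the 22, 18 had a positive difference with a median of 0.09 (summed level 11.48 to 11.76 in Prox1-OE and 11.40 to 11.74 in control), and those with the smallest p were Jun (0.26 ± 0.09 SE), Fosl2 (0.17 ± 0.08), Nr4a2 (-0.26 ± 0.14) and Junb (0.19 ± 0.12). The mean log2 difference of the distal over the proximal probe sets on the array's RNA controls, a measure of degradation, was 0.92, 0.93 and 0.94 in Prox1-OE and 0.99, 0.91 and 0.94 in control. The part of tissue handling and RNA quality in the chaperone values was not tested.

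**Figure D5:**
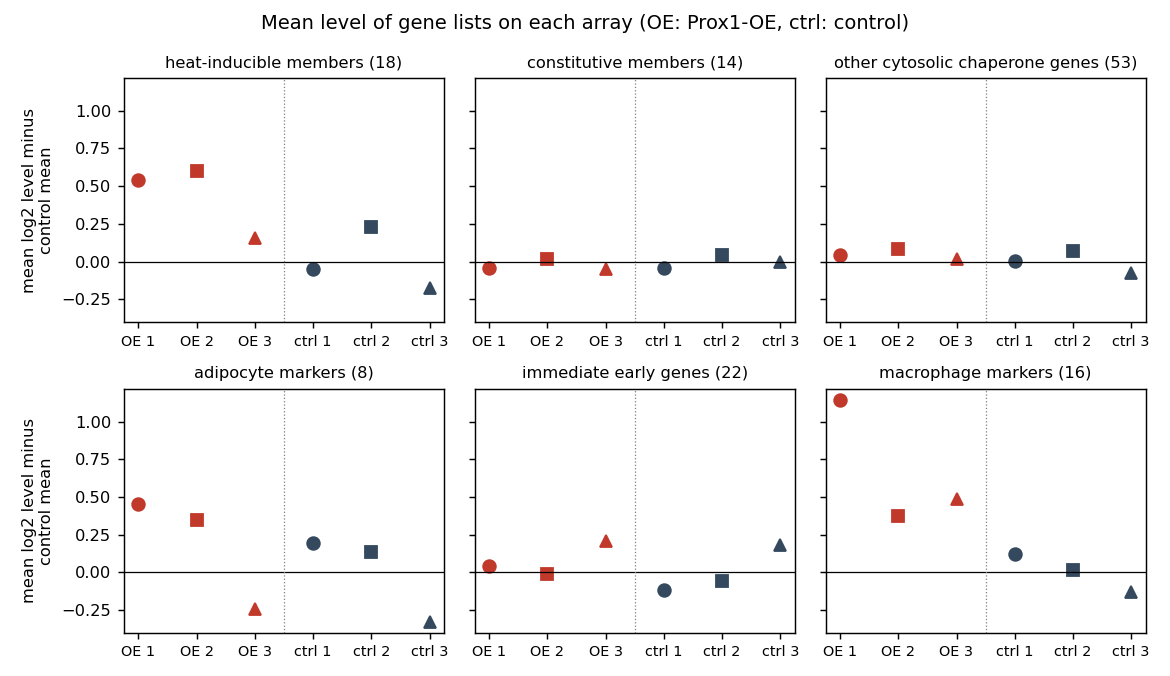
Mean log2 level of 6 gene lists on each array minus the control mean, with the number of measured genes in brackets; red symbols are Prox1-OE and dark symbols control, and symbol shapes mark the replicate number. Heat-inducible members, other cytosolic chaperone genes and adipocyte markers are lowest on replicate 3 within each group. On Prox1-OE replicate 3 the heat-inducible members still lie above the control mean. Immediate early genes are highest on replicate 3 within each group, and constitutive members stay near 0.

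Other genes of protein folding were described from lists that hold no member. Of 57 further cytosolic chaperone and co-chaperone genes 53 were measured, 30 with a positive and 23 with a negative difference. This list, too, is wider than its name, since it also holds genes of mitochondria and of the endoplasmic reticulum and genes that encode no chaperone. The median was 0.05 and the range -0.22 to 0.36 at the brightest probe sets, which overlaps the range of the heat-inducible members. In limma 0 of the 124 probe sets of this list passed the threshold, and 7 had an unadjusted p under 0.05, against 6.15% of all probe sets. The genes with the smallest p were Nudc, a co-chaperone of HSP90, which read 9.81, 9.60 and 9.56 in Prox1-OE and 9.37, 9.44 and 9.08 in control (0.36 ± 0.12 SE), Fkbp5, an immunophilin that glucocorticoids induce (0.24 ± 0.10), Cacybp, the calcyclin-binding protein (0.33 ± 0.14), and Sugt1, another co-chaperone of HSP90 (0.24 ± 0.12). Nudc, Fkbp5 and Sugt1 were higher in Prox1-OE without overlap, and Cacybp overlapped between the groups. Of the 53 genes, 5 were higher and 1 was lower without overlap, against 5.05% and 7.02% of all genes. A list of 21 genes of the endoplasmic reticulum, which holds chaperones and also the stress response genes Atf4, Ddit3, Xbp1, Trib3 and Herpud1, gave 13 positive with a median of 0.03 and 0 of 47 probe sets past the threshold (3 at an unadjusted p under 0.05). Herpud1 of ER-associated degradation differed by -0.27 ± 0.10, the disulphide isomerases Dnajc10 and Pdia3 by 0.21 ± 0.09 and 0.27 ± 0.12, and Trib3, a target of the stress response, by -0.44 ± 0.25.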

How the data were processed

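Per the labels, biotinylated cRNA from total RNA of whole pancreas was hybridized to Affymetrix expression arrays. The authors deposited 1 table of probe set levels on the log2 scale, and RMA and Partek 6.5 are named in the submitters' processing notes without settings. RMA gives the arrays a common distribution and compresses differences of dim probe sets. No batch, slide or scan date was given in the sources used here.

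From these values, 45037 probe sets (64 Affymetrix controls left out) were fitted by the moderated linear model of limma 3.58.1 (R 4.3.3, lmFit then eBayes), Prox1-OE minus control, with no covariate and no filter, and p-values were adjusted by Benjamini-Hochberg over all of them at 0.05. Intervals are 95% intervals of this fit, and p-values are two-sided and measure only the spread between these samples. A gene was represented by its brightest probe set on average over the 6 arrays. Levels of different probe sets were also ranked as percentiles and combined in list means and summed levels, and bright genes weigh most in the sums. The number of arrays limits the precision. The fit was tested on simulated data.

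The members, the split into classes, the other lists and the element search were chosen with earlier results of these data known. Every member could be named, and of every other list up to 4 genes with the smallest p. The sequences and their coordinates are from the RefSeq promoter table of GRCm38.p6.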

Additional observations from a re-analysis of the deposited data

How the results depend on the processing

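With 3 arrays per group, no exact permutation test can pass 0.05, and RMA values of dim probe sets such as those of Hspa1a and Hsf2 understate differences. The count of member probe sets past the threshold was 0 in all 21 alternatives. The 5 called among all probe sets became 2 with the replicate number as a replicate block and ranged from 0 to 8 without any one array (0 without each Prox1-OE array, 1 without control replicate 1 or 2, 8 without control replicate 3). Deviations from the group means correlated by only 0.06, 0.17 and 0.10 between same-numbered arrays, although all 6 arrays correlated best with their own number. These values do not settle whether the replicate numbers mark pairs, and the main fit was unpaired. The other cytosolic chaperone genes had 0 calls, and 0 to 1 without any one array: without control replicate 3, 1 probe set of Vcp, named after its values were seen, passed (1.19 ± 0.10 SE, limma adjusted p = 0.0372, against 0.876 and adjusted p = 0.772 with all arrays). This was not the brightest probe set of Vcp, which differed by 0.13 with all arrays and overlapped between the groups. The heat-inducible mean differed by 0.34 to 0.57 and the constitutive mean by -0.05 to -0.00 without any one array, and the gap between them was 0.37 to 0.58. Leaving out probe sets whose suffix marks several transcripts or possible cross-hybridization gave a heat-inducible difference of 0.29 and a gap of 0.32. Hspb1 and Hsph1 had no value in that alternative. Without the 6 members with the largest differences, an alternative added after seeing the data, the heat-inducible difference was 0.16 and the gap 0.18. Without Hspb6, also added after seeing the data, the constitutive difference was 0.047 and the gap 0.39, and without Hspb6 and those 6 the heat-inducible difference was 0.16, the constitutive 0.047 and the gap 0.11. Of the 32 members, 24 kept their sign in all alternatives. Hspa4l moved to 0.51 with the mean of its probe sets and to 0.38 without probe sets whose suffix marks several transcripts or possible cross-hybridization, where Hspb1 has no value and Hsp90aa1 gave 1.09. The causes of these shifts were not tested.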
